A study of Mus musculus with 10 samples.

Results

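The genes described are a set of 10 chosen by symbol. They are the chemokine genes Cxcl1, Cxcl2, Cxcl3 and Cxcl5, the chemokine receptor gene Cxcr2, and the genes S100a8, S100a9, Il1r2, Retnlg and Hdc, which are used as neutrophil markers. All 10 had a row among the 22329 genes of the deposited expression table. The samples were 10 subcutaneous tumours of B16F10, a melanoma cell line, grown in C57BL6/J mice after injection of 500000 cells. In 5 tumours (numbered 6 to 10), 80 µg of a cytokine mRNA mixture was injected once into the tumour. It held 20 µg each of mRNA for murine single chain IL-12, IL-15sushi, GM-CSF and IFNalpha. In the other 5 tumours (numbered 1 to 5), 80 µg of control mRNA encoding luciferase was injected in the same way. All tumours were collected 7 days later, and no untreated or uninjected tumour was analysed here. No source used here states sex, age or the cells that took up the mRNA, and B16F10 is a single cell line. The comparison asks how the levels of these genes differed between cytokine mRNA tumours and control mRNA tumours.

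Neutrophils are short-lived white blood cells that leave the blood at sites of injury and infection. The chemokines encoded by Cxcl1, Cxcl2, Cxcl3 and Cxcl5 bind the receptor CXCR2 on the neutrophil surface and draw these cells into tissue. S100A8 and S100A9 form calprotectin, a metal-binding protein that fills the neutrophil cytoplasm and that monocytes also make. IL1R2 is a decoy receptor that binds interleukin-1 without signalling. Retnlg encodes a resistin-like secreted protein found in mouse myeloid cells, and Hdc encodes histidine decarboxylase, the enzyme that makes histamine in mast cells, basophils and some other myeloid cells.

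RefSeq promoter windows, build GRCm38.p6, held sequence for 9 of the 10 genes, each covering 250 bases before the gene start to 50 after it. Those of the 3 chemokine genes below are shown because they share a run that the other 6 windows lack. They lie on the + strand at chr5:90890995-90891294 for Cxcl1, chr5:90903649-90903948 for Cxcl2 and chr5:90785851-90786150 for Cxcl3, and are written 5′ to 3′. Capitals mark the bases that match the NF-kappaB consensus on either strand.
Cxcl1: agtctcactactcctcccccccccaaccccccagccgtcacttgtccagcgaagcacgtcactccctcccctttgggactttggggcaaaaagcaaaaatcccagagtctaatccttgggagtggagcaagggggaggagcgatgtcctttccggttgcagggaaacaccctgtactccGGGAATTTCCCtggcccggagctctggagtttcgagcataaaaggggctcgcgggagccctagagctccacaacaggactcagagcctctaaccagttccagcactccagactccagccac
Cxcl2: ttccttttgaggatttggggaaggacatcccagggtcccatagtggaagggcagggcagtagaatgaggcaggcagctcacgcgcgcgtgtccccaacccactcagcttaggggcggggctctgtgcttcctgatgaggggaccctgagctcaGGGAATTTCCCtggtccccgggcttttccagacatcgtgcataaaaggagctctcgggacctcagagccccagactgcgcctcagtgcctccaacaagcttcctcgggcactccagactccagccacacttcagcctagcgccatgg
Cxcl3: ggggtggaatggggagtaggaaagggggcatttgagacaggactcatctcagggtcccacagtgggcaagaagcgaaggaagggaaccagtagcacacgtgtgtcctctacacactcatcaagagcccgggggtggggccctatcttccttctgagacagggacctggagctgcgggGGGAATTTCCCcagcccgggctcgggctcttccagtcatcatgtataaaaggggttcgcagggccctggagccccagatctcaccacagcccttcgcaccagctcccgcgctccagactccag
In each of these 3 windows the consensus matched once on each strand, and the paired matches overlapped in all but 1 base at each end. The match on the gene strand read GGGAATTTCC, and it began 71 bases before the gene start in Cxcl1, 97 bases before it in Cxcl2 and 73 bases before it in Cxcl3. NF-kappaB is a transcription factor family of inflammatory signalling. The consensus was found in 3 of the 9 windows and in 4.51% of 32851 RefSeq windows of the same length, searched on both strands. The letters GGGAATTTCC, picked after these windows had been read, were found in 3 of the 9 windows and in 0.0883% of all windows. The windows of Cxcr2, S100a8, S100a9, Il1r2, Retnlg and Hdc held no match.

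**Figure D1:**
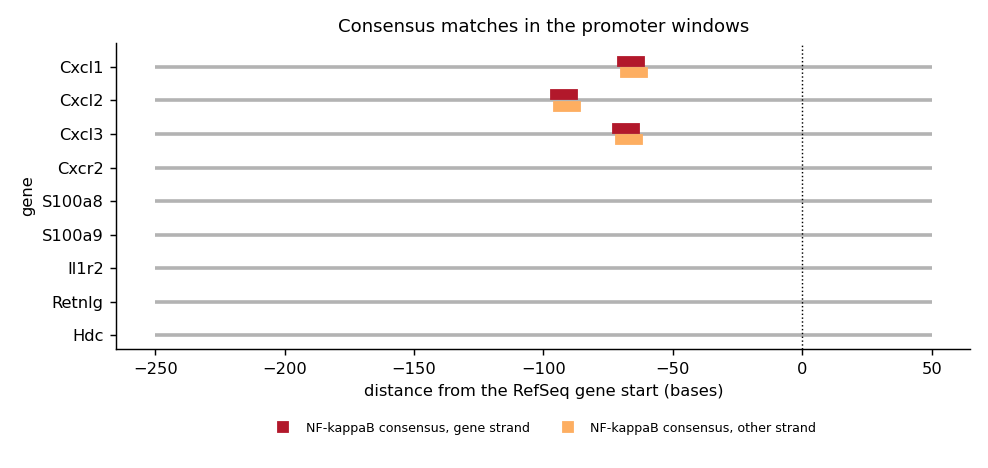
Matches to the NF-kappaB consensus in the RefSeq promoter windows of 9 genes, plotted as distance in bases from the gene start (dotted line at 0); grey lines are the windows, and coloured blocks are matches on the gene strand (red) and on the other strand (orange). Overlapping matches on both strands lie 71, 97 and 73 bases before the start of Cxcl1, Cxcl2 and Cxcl3, and the other 6 windows hold none.

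Levels are in TPM, a share of a library's transcripts corrected for transcript length. TPM keeps no sequencing depth, so depth is unknown, and a gene listed at 0 may lie below what that library could show. Genes were tested where at least 5 libraries had a TPM of at least 1, and 12497 genes passed. A gene was called at a limma adjusted p under 0.05. Of all genes tested, 10.4% were called, 926 higher and 378 lower in cytokine mRNA tumours. After rescaling without mitochondrial genes 825 were called higher and 901 lower, and without the 50 most abundant genes 855 higher and 569 lower. The median log2 change of all tested genes was -0.18, against -0.03 with median-ratio scaling, -0.37 without mitochondrial genes and -0.28 without the 50 most abundant genes. Among cytokine mRNA tumours 2 libraries stood apart. In tumour 7, 279 of the 1534 olfactory, vomeronasal, taste and trace amine receptor genes had a value above 0; the other 4 cytokine mRNA tumours had 22 to 43 and the control mRNA tumours 14 to 24. Its 7 melanocyte genes summed to 41.9 TPM, against 2569 to 16214 TPM in control mRNA tumours. Tumour 10 had the lowest summed T cell genes of its group, 35.7 TPM, against a highest control value of 19.1 TPM. Mitochondrial genes took 4.44% to 19.2% of TPM in cytokine mRNA tumours and 16.2% to 27.9% in control mRNA tumours. Tumours 6 and 7 listed 3 and 5 of 74 ribosomal protein genes at 0, so an exact 0 is given here only as listed at 0.

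Of the 10 genes, 5 passed the filter on low values, and 4 of these, Cxcl1, Cxcl2, S100a8 and Il1r2, were called higher in cytokine mRNA tumours; none was called lower. Among all genes tested, 7.41% were called higher and 3.02% lower. In bulk tissue, more cells of a type and more RNA per cell cannot be told apart. Cxcl1, S100a8 and Il1r2 each reached 1 TPM in exactly 5 libraries, and 5, 4 and 4 of these were cytokine mRNA tumours, and Hdc reached it in 6 libraries, 5 of them cytokine mRNA tumours. These genes entered the test through the group in which they were high, and the count is no support for the set as a whole. In 2 of the 5, Cxcl1 and Cxcl2, every cytokine mRNA tumour lay above every control mRNA tumour, as in 5.45% of all tested genes in that direction; of all genes above 0 in any library, 4.24% were so placed. Cxcl3, Cxcl5, Cxcr2, S100a9 and Retnlg did not pass the filter.

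**Figure D2:**
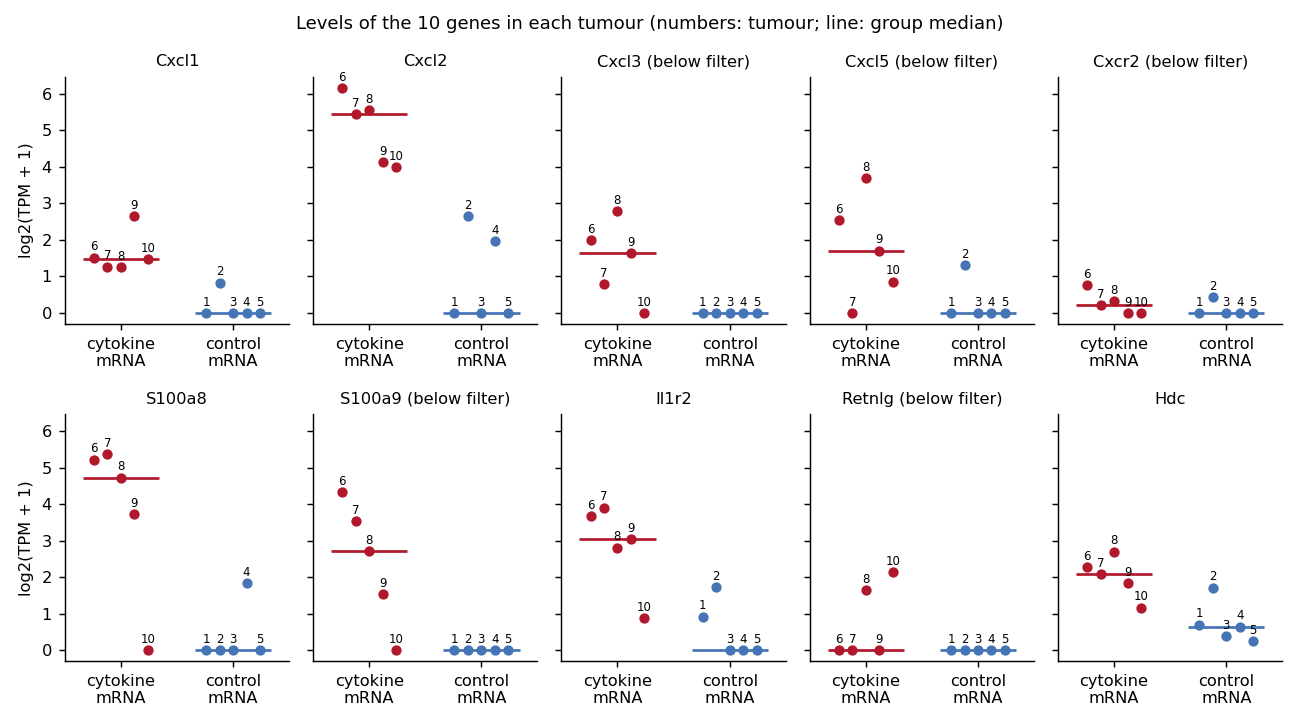
Level of each of the 10 genes in each tumour as log2(TPM + 1), with cytokine mRNA tumours in red on the left and control mRNA tumours in blue on the right; points are tumours, labelled by number, and lines are group medians. Cxcl1 and Cxcl2 show no overlap between groups, while tumour 10 lies at 0 for S100a8 and S100a9.

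Cxcl2, whose product is also called MIP-2, was the most abundant of the chemokine genes. Its levels were 69.9, 42.2, 45.9, 16.5 and 14.97 TPM in cytokine mRNA tumours 6 to 10, against 0, 5.23, 0, 2.88 and 0 TPM in control mRNA tumours 1 to 5. The groups did not overlap, and tumours 6, 7 and 8 held the highest values. Cxcl2 rose by 4.13 ± 0.63 (SE) on the log2(TPM + 1) scale, with a limma adjusted p of 0.00961. The call held with any 1 tumour left out, at limma adjusted p of 0.00122 to 0.0363, and was lost without tumours 6 and 7 together (limma adjusted p = 0.0636). An exact 2-sided permutation test gave p = 0.00794, the smallest that 5 against 5 tumours allow, and p = 0.0860 adjusted over all genes tested.

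Cxcl1, which encodes the chemokine KC, was low in both groups. It stood at 1.86, 1.41, 1.38, 5.23 and 1.78 TPM in cytokine mRNA tumours 6 to 10, against 0.773 TPM in control mRNA tumour 2 and a listed 0 in control mRNA tumours 1, 3, 4 and 5. The groups did not overlap, and tumour 9 was highest. Cxcl1 rose by 1.46 ± 0.35 (SE) on the log2(TPM + 1) scale (limma adjusted p = 0.0257; exact permutation p = 0.00794, adjusted 0.0860). The call was lost without any 1 of control mRNA tumours 3, 4 and 5 or cytokine mRNA tumours 6, 8 and 9, at limma adjusted p of 0.0504 to 0.0612. The log2 change was 1.42 without control mRNA tumour 3, 4 or 5, and 1.21 to 1.56 without tumour 6, 8 or 9. Within single cytokine mRNA tumours the Cxcl2 level in TPM was 3.16 to 37.6 times the Cxcl1 level, lowest in tumour 9.

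Cxcl3 and Cxcl5 were low and uneven. Cxcl3 was at 2.98, 0.724, 5.91, 2.12 and 0 TPM in cytokine mRNA tumours 6 to 10 and was listed at 0 in all 5 control mRNA tumours. Cxcl5, known in other tissues as a chemokine of epithelial cells and platelets, was at 4.77, 0, 11.8, 2.25 and 0.812 TPM in cytokine mRNA tumours 6 to 10, against 1.47 TPM in control mRNA tumour 2 and a listed 0 in the other 4. Tumour 8 was highest for both genes. The groups met at 0 for Cxcl3, through tumour 10, and overlapped for Cxcl5, through tumours 7 and 10. The exact permutation p was 0.0476 for Cxcl3 and 0.0873 for Cxcl5, each for the gene alone. Without any 1 control mRNA tumour the exact permutation p of Cxcl3 was 0.0873. Its control mRNA values were all listed at 0, so its log2 change stayed at 1.44 and only the number of tumours fell. Leaving out tumour 7 brought Cxcl5 to an exact permutation p of 0.0238. Among genes below the filter, 5.17% had an exact p under 0.05 and were higher in cytokine mRNA tumours.

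The chemokine genes are related in sequence, and their reads could be split between copies. Over the longest open reading frame of each gene in GENCODE release M21, Cxcl2 and Cxcl3 were identical at 89.8% of aligned bases, Cxcl1 and Cxcl2 at 75.6%, and Cxcl1 and Cxcl3 at 72.6%. Cxcl5 was 48.9% to 50% identical to the other 3. The low values of Cxcl3 beside a high Cxcl2 are therefore uncertain. In RefSeq gene order Cxcl1 and Cxcl2 are neighbouring protein-coding genes on chromosome 5, with Cxcl3 and Cxcl5 in the same cluster.

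Cxcr2, the receptor for these chemokines, was near 0 in every tumour. It was at 0.702, 0.162, 0.243, 0 and 0 TPM in cytokine mRNA tumours 6 to 10, against 0.356 TPM in control mRNA tumour 2 and a listed 0 in control mRNA tumours 1, 3, 4 and 5. The groups overlapped, and the exact permutation p was 0.405. Of 4 other genes listed with the axis, Cxcr1, Cxcl15 and Ppbp were sparse too. Cxcr1, a second receptor, and Cxcl15, a further chemokine gene in mouse, were listed at 0 in all 10 tumours. Ppbp, the platelet ligand of CXCR2, did not exceed 1.08 TPM. Ackr1, a decoy receptor that binds chemokines on vessels and red cells, was at 7.51, 13.7, 10.5, 1.59 and 0 TPM in cytokine mRNA tumours 6 to 10, against 0.669 TPM in control mRNA tumour 2 and a listed 0 in the other 4. None of these 4 genes passed the filter.

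S100a8 was the most abundant of the marker genes. Its levels were 36.3, 40.1, 25.5, 12.3 and 0 TPM in cytokine mRNA tumours 6 to 10, against 2.57 TPM in control mRNA tumour 4 and a listed 0 in control mRNA tumours 1, 2, 3 and 5. Tumours 6 to 9 lay above every control mRNA tumour, and tumour 10 overlapped them at 0. S100a8 rose by 3.44 ± 0.91 (SE) on the log2(TPM + 1) scale (limma adjusted p = 0.0370; exact permutation p = 0.0476, adjusted 0.157). The call was lost without any 1 of control mRNA tumours 1 to 5 or cytokine mRNA tumours 6 to 9, at limma adjusted p of 0.0515 to 0.0985. It was also lost with a pseudocount of 0.1 (limma adjusted p = 0.0635) and with no filter (0.0627). Leaving out control mRNA tumour 1, 2, 3 or 5, each listed at 0, gave a log2 change of 3.35. Leaving out tumour 6, 7, 8 or 9 gave 3.05 to 3.46. Without tumour 10 the log2 change was 4.39, with a limma adjusted p of 0.000483.

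S100a9, the partner of S100a8, followed the same order of groups at lower levels. It was at 19.2, 10.6, 5.52, 1.90 and 0 TPM in cytokine mRNA tumours 6 to 10 and was listed at 0 in all control mRNA tumours. The exact permutation p was 0.0476 for the gene alone. In tumours 6, 7, 8 and 9 the S100a8 level was 1.89, 3.78, 4.61 and 6.49 times the S100a9 level in TPM. The RefSeq order of protein-coding genes places S100a8 and S100a9 side by side on chromosome 3.

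Il1r2 was present in all cytokine mRNA tumours, at 11.8, 13.98, 6.00, 7.27 and 0.843 TPM in tumours 6 to 10. In control mRNA tumours it was at 0.891 and 2.32 TPM in tumours 1 and 2 and was listed at 0 in tumours 3, 4 and 5. Only tumour 10 overlapped the control mRNA values. Il1r2 rose by 2.33 ± 0.58 (SE) on the log2(TPM + 1) scale (limma adjusted p = 0.0290; exact permutation p = 0.0238, adjusted 0.115). The call was lost without any 1 of control mRNA tumours 3, 4 and 5 or cytokine mRNA tumours 6, 7, 8 and 9, at limma adjusted p of 0.0601 to 0.0822. The log2 change was 2.20 without control mRNA tumour 3, 4 or 5, and 2.07 to 2.35 without tumour 6, 7, 8 or 9.

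Of the other 3 interleukin-1 receptor system genes, 1 was called higher, where 7.41% of all tested genes were called higher. Il1rn, the secreted interleukin-1 receptor antagonist, averaged 250 ± 151 TPM in cytokine mRNA tumours and 19.2 ± 9.49 TPM in control mRNA tumours (SD, n = 5 each), a log2 rise of 3.52 ± 0.50 (SE; limma adjusted p = 0.00933). The signalling receptor gene Il1r1 averaged 7.90 ± 3.73 TPM in cytokine mRNA tumours and 4.59 ± 3.20 TPM in control mRNA tumours (limma adjusted p = 0.333). The co-receptor gene Il1rap averaged 16.1 ± 6.01 TPM in cytokine mRNA tumours and 19.2 ± 10.6 TPM in control mRNA tumours (limma adjusted p = 0.749). Il1r1 and Il1rap did not pass the test, and whether their changes differ in size from that of Il1rn was not tested.

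Hdc was the only gene of the set above 0 in every library. It averaged 3.28 ± 1.58 TPM in cytokine mRNA tumours and 0.796 ± 0.851 TPM in control mRNA tumours (SD, n = 5 each). Values were 3.86, 3.22, 5.50, 2.58 and 1.24 TPM in cytokine mRNA tumours 6 to 10, against 0.625, 2.28, 0.312, 0.568 and 0.190 TPM in control mRNA tumours 1 to 5. The groups overlapped through cytokine mRNA tumour 10 and control mRNA tumour 2. The log2 difference was 1.27 ± 0.38 (SE; 95% interval 0.44 to 2.10) and did not pass the threshold (limma adjusted p = 0.0539; exact permutation p = 0.0159, adjusted 0.1004). It passed without control mRNA tumour 2 (limma adjusted p = 0.0432) and without cytokine mRNA tumour 10 (0.0145).

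Other histamine genes were low, and none of the 6 passed the filter. The receptor gene Hrh2 was at 3.26, 9.23, 7.45, 1.90 and 0.427 TPM in cytokine mRNA tumours 6 to 10 and at 0 to 0.589 TPM in control mRNA tumours. Mast cell genes, which could accompany Hdc, summed over 8 genes to 12.7 to 95.6 TPM in cytokine mRNA tumours, highest in tumour 7, and to 21.1 to 28.3 TPM in control mRNA tumours. Kit, a receptor gene that melanocytes also express, made up the whole sum in cytokine mRNA tumour 10 and control mRNA tumour 5. Without Kit the other 7 genes summed to 15.4, 82.2, 22.05, 27.4 and 0 TPM in cytokine mRNA tumours 6 to 10, against 7.06, 13.7, 13.2, 2.01 and 0 TPM in control mRNA tumours 1 to 5, so tumours 6 to 9 lay above every control mRNA tumour and tumour 10 did not. All 7 had a higher mean in cytokine mRNA tumours, and tumour 7, a library that stood apart, held the highest value of each. Ms4a2 was at 0.223 TPM there and was listed at 0 in every other tumour. None of the 4 tested mast cell genes was called. Without tumour 10, 2 of the 4 were called higher, and none was without tumours 7 and 10 together. The tryptase gene Tpsb2 was at 6.03, 26.8, 8.45, 9.54 and 0 TPM in cytokine mRNA tumours 6 to 10 and at 0 to 7.50 TPM in control mRNA tumours, and Kit averaged 10.8 ± 4.29 TPM in cytokine mRNA tumours and 17.9 ± 7.74 TPM in control mRNA tumours (SD, n = 5 each). Of 5 basophil genes 1 was listed at 0 in all 10 tumours, and the sum reached 4.58 TPM in cytokine mRNA tumours and 0.284 TPM in control mRNA tumours. The part of mast cells and basophils in the Hdc values was not tested.

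Retnlg was listed at 0 in 3 cytokine mRNA tumours and in all 5 control mRNA tumours. It was at 2.14 TPM in tumour 8 and 3.39 TPM in tumour 10 (exact permutation p = 0.444). It was the only gene of the 10 with its highest value in tumour 10. The paralogs Retnla and Retnlb were 71.5% and 73.2% identical to Retnlg over the open reading frame. Of the other 3 resistin family genes only Retnla was tested, at 0 to 3.81 TPM in cytokine mRNA tumours and 0 to 9.23 TPM in control mRNA tumours (limma adjusted p = 0.750).

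Further genes of mature neutrophils included several with higher levels. Of 18 such genes, 12 were tested, and 5 were called higher and none lower, where 7.41% of all tested genes were called higher. Fpr1, which was called, and Mmp8, which was not, passed the filter through the cytokine mRNA tumours, with at most 1 control mRNA tumour at 1 TPM, so the count is a description. Fpr2, a receptor for bacterial formyl peptides, was at 85.2, 143, 59.1, 47.0 and 7.16 TPM in cytokine mRNA tumours 6 to 10, against 8.19, 0, 0, 2.07 and 0 TPM in control mRNA tumours 1 to 5 (log2 rise of 4.66 ± 0.82 SE, limma adjusted p = 0.0121). Clec4d, a C-type lectin of myeloid cells, averaged 131 ± 76.0 TPM in cytokine mRNA tumours and 6.19 ± 4.93 TPM in control mRNA tumours (SD, n = 5 each). The formyl peptide receptor gene Fpr1 rose by 3.28 on the log2 scale, and Csf3r, the G-CSF receptor gene, by 3.20. G0s2, not called, averaged 1.51 TPM in cytokine mRNA tumours and 1.56 TPM in control mRNA tumours (limma adjusted p = 0.986). Mmp9, not called either, averaged 11.7 TPM and 10.0 TPM in these groups (0.441). Slpi, Ifitm6, Padi4 and Pglyrp1 had higher means in cytokine mRNA tumours and were not called (limma adjusted p = 0.392, 0.242, 0.0774 and 0.0508). Without tumour 6 the count was 3, and without tumour 10 it was 8; without tumours 6 and 7 together it was 0, as it was for every other list described below.

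Ly6g and most granule genes of neutrophil precursors were listed at 0 or at low values. Ly6g, the antigen of the antibody used to sort mouse neutrophils, was at 1.06, 1.27 and 0.956 TPM in cytokine mRNA tumours 7, 8 and 9 and was listed at 0 in the other 7 tumours. Of 11 granule genes made by neutrophil precursors, 3 were tested and none was called. Without tumour 10, 2 of the 3 were called higher, as they were without tumours 7 and 10 together. Camp and Ms4a3 were listed at 0 in all 10 tumours, Mpo and Elane each in 9. Chil3 and Lcn2, which monocytes and macrophages can also express, were the most abundant of the list. Chil3 was at 1.02 to 61.4 TPM in cytokine mRNA tumours and 0 to 4.22 TPM in control mRNA tumours (limma adjusted p = 0.0572), and Lcn2 at 0 to 27.1 TPM in cytokine mRNA tumours and 0 to 6.16 TPM in control mRNA tumours (0.143). Cxcr2, Cxcr1 and Ly6g were this low, while Csf3r and S100a8 were called higher. Csf3r averaged 64.8 ± 44.8 TPM in cytokine mRNA tumours and 5.32 ± 3.72 TPM in control mRNA tumours (SD, n = 5 each). Values near 0 cannot be told from absence. Whether the marker label holds in these tumours was not tested, and the genes are named here individually.

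**Figure D3:**
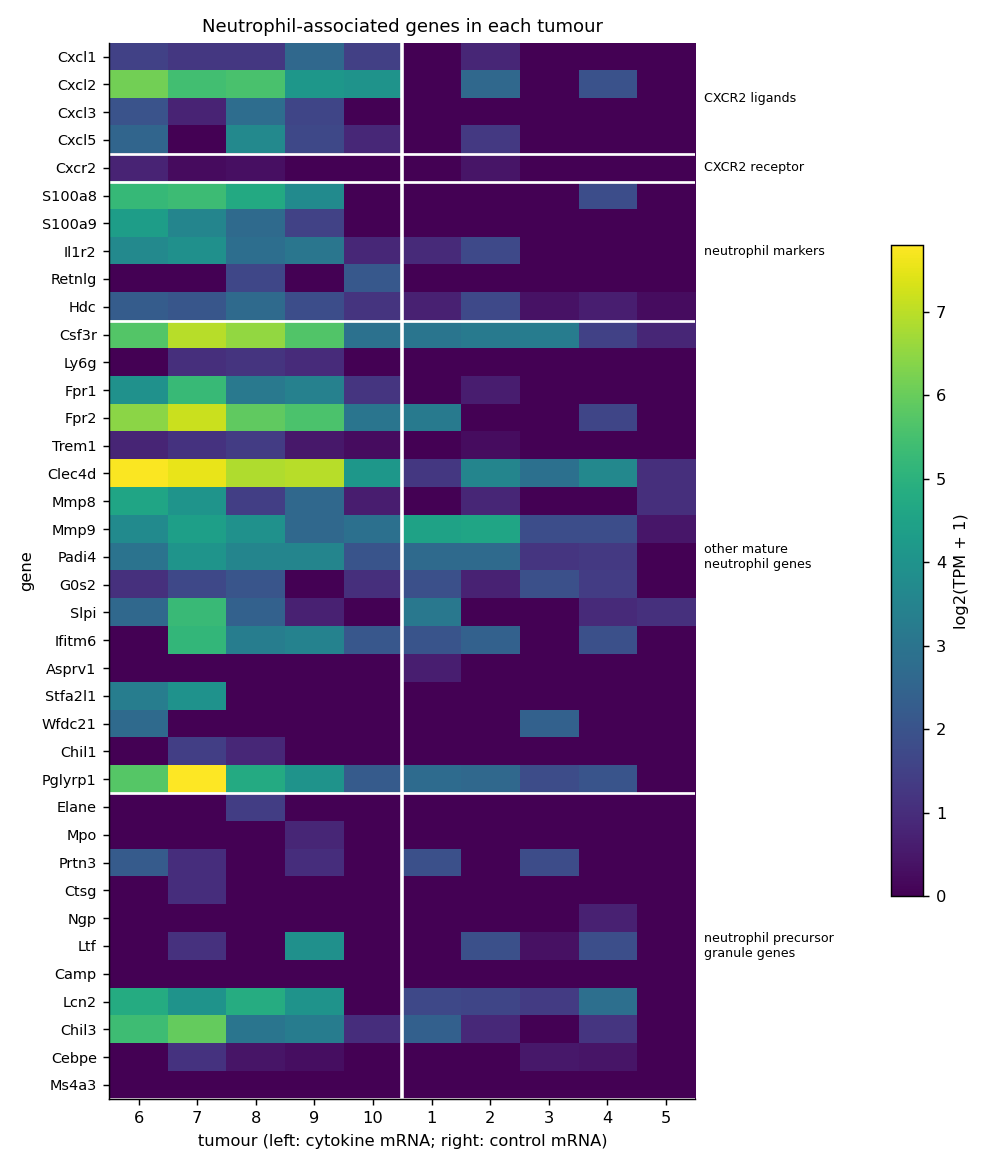
Level of the 10 genes and of further mature neutrophil and precursor granule genes as log2(TPM + 1) by colour, 1 row per gene and 1 column per tumour, with cytokine mRNA tumours left of the white line and control mRNA tumours right of it. Csf3r, Fpr2, Clec4d, Cxcl2 and S100a8 are bright in tumours 6 to 9, tumour 10 is darker than the rest of its group, and Cxcr2, Ly6g, Camp and Ms4a3 are dark throughout.

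Most markers of monocytes and macrophages were also higher in cytokine mRNA tumours. Of 12 such genes tested, 9 were called higher and none lower, where 7.41% of all tested genes were called higher. The sum of the 12 ranged over 826 to 8363 TPM in cytokine mRNA tumours and 146 to 669 TPM in control mRNA tumours. Msr1, a scavenger receptor of macrophages, averaged 266 ± 193 TPM in cytokine mRNA tumours and 20.8 ± 9.75 TPM in control mRNA tumours (SD, n = 5 each), and the lysozyme gene Lyz2 averaged 995 ± 828 TPM in cytokine mRNA tumours and 80.3 ± 39.9 TPM in control mRNA tumours. Csf1r, a growth factor receptor gene of macrophages, rose by 2.92 on the log2 scale. The count was 4, 3 and 3 without control mRNA tumours 2, 4 and 5, and it was 2, 5, 2, 4 and 12 without cytokine mRNA tumours 6 to 10 in turn. S100a8, S100a9, Il1r2, Csf3r, Fpr1, Fpr2 and Clec4d are also expressed by monocytes. The part of monocytes and macrophages in the values of these genes was not tested.

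Other cell types were compared through the same kind of list. Keratinocyte genes, a possible source of S100a8 and S100a9 in skin, summed over 10 genes to 0.908 to 15.7 TPM in cytokine mRNA tumours and 0.377 to 3.07 TPM in control mRNA tumours. The most abundant were Krt10, up to 8.30 TPM, and Lor, up to 9.16 TPM; Krt6a was listed at 0 in all tumours, and Krt5 and Krt14 did not exceed 1.05 TPM. Fibroblasts, which can make CXCR2 ligands, had none of 7 genes called, among them the collagen genes Col3a1 at 271 ± 212 TPM in cytokine mRNA tumours and 245 ± 143 TPM in control mRNA tumours, and Col1a1 at 243 ± 131 TPM in cytokine mRNA tumours and 204 ± 144 TPM in control mRNA tumours (SD, n = 5 each). Dcn, a matrix proteoglycan gene of the same list, averaged 212 ± 127 TPM in cytokine mRNA tumours and 59.7 ± 37.2 TPM in control mRNA tumours, a log2 difference of 2.05 that did not pass the test (limma adjusted p = 0.181). Endothelium had none of 6 called, with Pecam1 at 35.4 ± 20.2 TPM in cytokine mRNA tumours and 22.9 ± 5.68 TPM in control mRNA tumours, and Cdh5 at 29.1 ± 6.05 TPM in cytokine mRNA tumours and 38.1 ± 7.91 TPM in control mRNA tumours. Without tumour 10, 1 fibroblast gene and 1 endothelial gene were called higher. Of the 6 T cell genes 5 were tested and all 5 called higher, where 7.41% of all tested genes were called higher. Cd3e rose by 5.05, Cd8a by 4.26, Cd3g by 4.14 and Cd8b1 by 3.90 on the log2 scale.

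Eosinophil, platelet, red blood cell and melanocyte lists had no gene called. In that order 1 of 6, 3 of 5, 3 of 5 and 7 of 7 genes were tested. Among eosinophil genes Epx, Prg2 and Ear1 were listed at 0 in all 10 tumours, and Ear2 reached 13.1 TPM in cytokine mRNA tumour 7 and 2.26 TPM in control mRNA tumours. The platelet gene Pf4, which macrophages also express, averaged 446 ± 555 TPM in cytokine mRNA tumours and 35.4 ± 25.1 TPM in control mRNA tumours (SD, n = 5 each; limma adjusted p = 0.0681), while Itga2b did not exceed 3.86 TPM. With single tumours left out, Pf4 was called only without tumour 10 (limma adjusted p = 0.00681). The haemoglobin gene Hbb-bt averaged 47.3 ± 38.6 TPM in cytokine mRNA tumours and 20.2 ± 24.4 TPM in control mRNA tumours, and Alas2 was at 1.16 to 18.6 TPM in cytokine mRNA tumours and 0 to 9.67 TPM in control mRNA tumours. The pigment genes Tyrp1 and Dct were lowest in tumour 7, at 3.16 and 4.60 TPM, and their difference between groups did not pass the test (limma adjusted p = 0.436 for Tyrp1 and 0.349 for Dct).

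Signals that produce, call and guide neutrophils differed between genes. Of 17 such genes, 9 were tested, and 6 were called higher and none lower, where 7.41% of all tested genes were called higher. Ltb4r1, one of the 6, passed the filter only through the cytokine mRNA tumours. Tnf, an inflammatory cytokine that induces these chemokines, was at 43.9, 60.8, 47.7, 38.6 and 9.07 TPM in cytokine mRNA tumours 6 to 10, against 3.21, 2.30, 2.16, 0.410 and 0 TPM in control mRNA tumours 1 to 5, a log2 rise of 3.95 ± 0.55 (SE; limma adjusted p = 0.00798). C5ar1, a receptor for the complement fragment C5a, and Selplg, a selectin ligand, were called too. Alox5ap, a protein of leukotriene synthesis, averaged 176 ± 180 TPM in cytokine mRNA tumours and 12.4 ± 6.35 TPM in control mRNA tumours (SD, n = 5 each). Ltb4r1, the leukotriene B4 receptor gene, was at 5.96, 19.2, 7.28, 5.91 and 1.005 TPM in cytokine mRNA tumours 6 to 10 and was listed at 0 in all control mRNA tumours. Alox5, Lta4h and Selp were tested and not called (limma adjusted p = 0.956, 0.817 and 0.512). They averaged 2.36, 153 and 15.2 TPM in cytokine mRNA tumours and 2.22, 164 and 7.30 TPM in control mRNA tumours.

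Il1b, the interleukin-1 beta gene, averaged 57.0 ± 33.4 TPM in cytokine mRNA tumours and 6.43 ± 5.32 TPM in control mRNA tumours (SD, n = 5 each; log2 rise of 2.81 ± 0.76 SE, limma adjusted p = 0.0392). Leaving out any 1 of tumours 2 to 9 ended the call, at limma adjusted p up to 0.104. The cytokine genes that drive neutrophil production were sparse. Csf3, the G-CSF gene, did not exceed 0.983 TPM in any tumour, and Il17a was listed at 0 in all 10. The endothelial selectin gene Sele did not exceed 0.721 TPM. The count of genes called was 2, 3 and 3 without tumours 6, 8 and 9.

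Of the 3 receptor genes of S100A8 and S100A9 tested, only Cd36 was called higher, where 7.41% of all tested genes were called higher. Cd36 is a scavenger receptor gene also of macrophages and fat cells. It averaged 124 ± 62.1 TPM in cytokine mRNA tumours and 19.9 ± 9.45 TPM in control mRNA tumours (SD, n = 5 each; log2 rise of 2.50 ± 0.53 SE, limma adjusted p = 0.0182; 0.0561 without tumour 6). Tlr4, the receptor for bacterial lipopolysaccharide, averaged 32.3 ± 6.76 TPM in cytokine mRNA tumours and 31.1 ± 11.0 TPM in control mRNA tumours (limma adjusted p = 0.824).

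**Figure D4:**
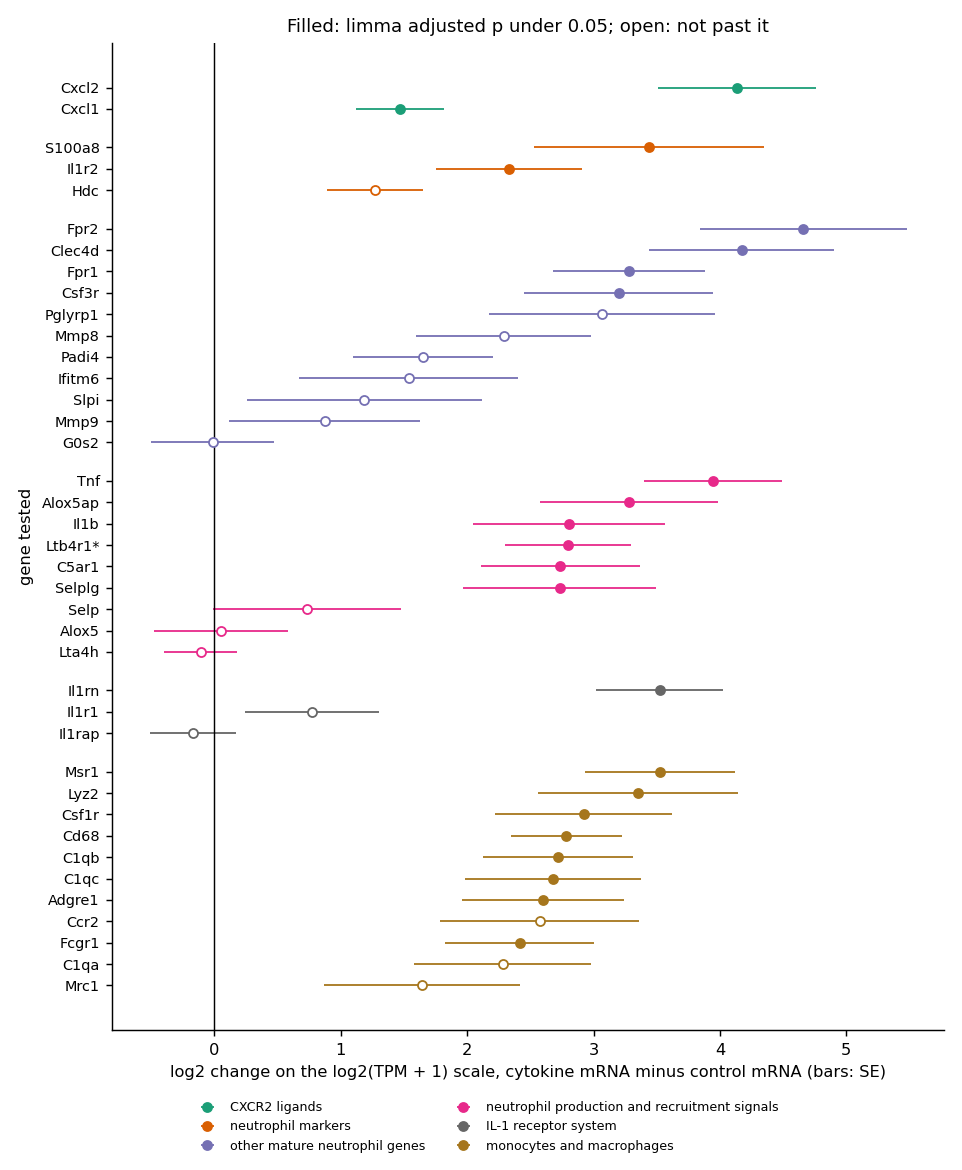
Log2 change on the log2(TPM + 1) scale, cytokine mRNA minus control mRNA, for tested genes of 6 lists, all but 2 of which are drawn; points are limma estimates, bars are SE, filled points have an adjusted p under 0.05, and the asterisk marks a gene listed at 0 in all control mRNA tumours, whose size depends on the pseudocount. Cxcl2 at 4.13 and Fpr2 at 4.66 lie far to the right, while Il1rap, Alox5, Lta4h and G0s2 lie near 0.

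Single genes of the set stood differently in tumour 10. There Cxcl2 stood at 14.97 TPM and Cxcl1 at 1.78 TPM, above every control mRNA tumour, while S100a8 and S100a9 were listed at 0 and Il1r2, at 0.843 TPM, lay within the control mRNA values. Neither class moved as 1 there, since Cxcl3 was listed at 0, Cxcl5, at 0.812 TPM, lay below control mRNA tumour 2, and Retnlg, at 3.39 TPM, had its highest value. In control mRNA tumours, tumour 2 held the highest value in 6 of the 7 genes that were above 0 in any of them, and S100a8 was the exception, with its highest value in tumour 4. By Pearson's r of log2(TPM + 1) over the 10 tumours, given as a description since the groups differ, the tested genes most like Cxcl2 were Hk3, Gzmb and Acod1, with r of 0.964, 0.959 and 0.958. Those most like S100a9 were Gzmk, Jak1 and Ifngr1, with r of 0.973, 0.972 and 0.971.

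**Figure D5:**
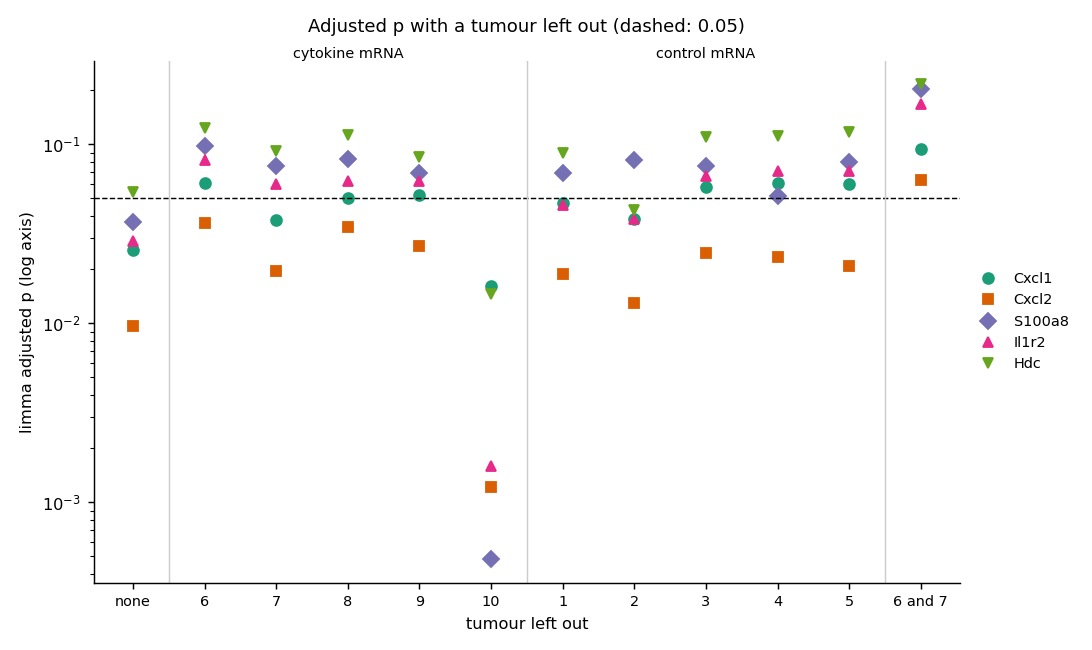
Limma adjusted p on a log axis for the 5 tested genes of the set with no tumour left out, with each cytokine mRNA and then each control mRNA tumour left out, and with tumours 6 and 7 left out together; the dashed line is 0.05. Cxcl2 stays below the line with any 1 tumour left out, all 5 genes lie below it without tumour 10, and none does without tumours 6 and 7.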

How the data were processed

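Messenger RNA of 10 tumours was sequenced. Per the labels' protocols, extracted RNA was DNase-treated and polyA RNA went into stranded NuGEN libraries. The authors deposited 1 table of TPM, scaled to the same total in each library. STAR and the build GRCh38, a human build, are named per the submitters' processing notes, while the table holds mouse symbols; how reads were counted is not stated. Of 22329 symbols, 21968 were in GENCODE release M21.

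Samples were grouped by title; nothing in the labels says whether libraries of a group share an animal, so p-values measure the spread between these samples. Genes reaching a TPM of 1 in 5 or more libraries were compared as log2(TPM + 1) with limma 3.58.1 in R 4.3.3 (2-sided, variance trend), adjusted by Benjamini-Hochberg over all genes tested; this scale understates changes of low genes. Single genes also had an exact 2-sided permutation test of the group means. The fit was tested on simulated data. The 10 genes and the other lists were chosen with earlier results of these data known. Named by rule were the 10 genes, the 3 genes most correlated with S100a9 and with Cxcl2, and from each other list up to 4 called genes by size of change, or else the 2 of highest mean TPM; further genes were named after their values were seen. A few genes that the rule would name are counted in their lists but not reported here.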

Additional observations from a re-analysis of the deposited data

Results flagged for a closer look

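In 7 cases 1 tumour lay far from the other 4 of its group, by a gap of more than 0.71 of the group's range in the units given; chance flags about 1 in 20 groups, and in sparse genes a lone value above 0 is enough. Cytokine mRNA tumour 9 held 5.23 TPM of Cxcl1. Control mRNA tumour 2 held 0.773 TPM of Cxcl1, 1.47 TPM of Cxcl5, 0.356 TPM of Cxcr2 and 2.28 TPM of Hdc. Control mRNA tumour 4 held 2.57 TPM of S100a8. Cytokine mRNA tumour 7 listed 279 chemosensory receptor genes above 0.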

How the results depend on the processing

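Every gene of the set kept a higher mean log2 level in cytokine mRNA tumours under each alternative run for it; the 5 below the filter had no value with array weights, without the trend or with a filter at a TPM of 5, and of the tested genes only Cxcl2 had one with that filter. The number of the set called, 4, was 1 with a filter at a TPM of 5 (1 of the set tested), 0 without tumours 6 and 7, 0 by the exact permutation test, and 1 to 5 with single tumours left out. The number of the 10 with an exact unadjusted p under 0.05, 7 (all higher in cytokine mRNA tumours, as were 11.5% of all genes above 0 in a library at that p), was 3 without tumours 6 and 7 and 5 to 7 with single tumours left out. The count of all called genes, 1304, was 846 with no filter, 2769 with array weights, 20 without tumours 6 and 7, 2607 without tumours 7 and 10, 0 by the exact permutation test (3785 at an unadjusted p under 0.05), and 367 to 3238 with single tumours left out. Among the other named genes, none of them called, signs turned as follows. The log2 change of Ear2, 0.60, was -0.26 with array weights and -0.21 without tumours 7 and 10, and that of Alas2, 0.62, was -0.17 and -0.13 there. Without tumours 6 and 7, Col1a1, 0.49, was -0.025 and Tyrp1, -2.05, was 0.15. Without mitochondrial genes Col3a1, 0.12, was -0.084. With single tumours left out, Retnla ranged over -0.75 to 0.094, Ear2 ranged over -0.040 to 0.91, Col3a1 ranged over -0.56 to 0.61 and Col1a1 ranged over -0.11 to 0.88. The cause of these shifts was not tested. No paired analysis was possible because the groups share no numbers. Depth is unknown, so values near 0 cannot be told from absence.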

Other observations

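Single genes of the lists appeared in few tumours. Stfa2l1, a stefin gene of mouse neutrophils, was at 8.88 and 14.8 TPM in cytokine mRNA tumours 6 and 7 and was listed at 0 in the other 8 tumours. Ltf, the lactoferrin gene, was at 13.9 TPM in cytokine mRNA tumour 9, against at most 1.18 TPM in the other cytokine mRNA tumours and 2.74 TPM in control mRNA tumours. Mmp8, the neutrophil collagenase gene, was at 22.9, 15.6, 1.73, 5.17 and 0.556 TPM in cytokine mRNA tumours 6 to 10, against 0 to 1.07 TPM in control mRNA tumours (limma adjusted p = 0.0567). These genes were chosen after their values were seen.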
